A study of Caenorhabditis elegans with 6 samples.

Results

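The comparison described here set strain GR1395 of the nematode Caenorhabditis elegans against the wild-type strain N2 in the first larval stage (L1), over all genes of the deposited table. The libraries were chosen by the strain name in their labels, which gave 2 GR1395 and 2 N2 libraries, 4 of the 6 libraries in the series. GR1395 carries mgIs49, a transgene array in which the promoter of the molting gene mlt-10 drives GFP fused to a destabilising PEST sequence, together with a GFP reporter of the neuronal gene ttx-3, and 1 label spells the strain GR1935. The third strain, HW3826, carries the array maIs105, a GFP reporter of the adult collagen gene col-19 (the labels also write VT1367), and its 2 libraries served to estimate the spread and for side-by-side values. Larvae of all strains, N2 included, had hatched without food in an overnight M9 synchronisation and were collected 4 hours into development at 25 °C, and polyadenylated RNA was taken from whole animals. The copy number and insertion site of mgIs49 and the breeding history of the strain are not stated in any source used here, so the array and any other genetic difference between the strains cannot be told apart. The labels do not name separate cultures for the libraries of a strain, so the p-values below measure no more than the scatter of these libraries, and part of that may be technical.

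An L1 larva hatches with some of the RNAs and proteins that its mother placed in the egg and with a cuticle built in the embryo. Its gut of a few large cells digests food and handles metals and foreign chemicals. Heat and misfolded protein are met by chaperones under the transcription factor HSF-1, while electrophiles and oxidants are met by glutathione S-transferases and redox enzymes under SKN-1. The cuticle is made mostly of collagens and is replaced at each molt. Zona pellucida proteins and lipocalins are part of the wider apical matrix, which includes a precuticle.

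The 6 libraries held 42593688 to 54957641 counts. Levels are given in CPM, each count scaled to 1000000 per library after the library total was multiplied by a TMM factor of 0.977 to 1.034. A floor of 3 counts lay between 0.0546 and 0.0704 CPM and accounts for counting error alone. Of 20190 genes, 15024 passed the expression filter and were tested. The 6 vitellogenin genes of adults summed to 1.51 and 1.78 CPM in GR1395 and 1.76 and 1.45 CPM in N2, and the 31 major sperm protein genes to 0.334 and 0.483 CPM in GR1395 and 0.117 and 0.201 CPM in N2, whereas 26 body wall muscle markers summed to 14486 and 14380 CPM in GR1395 and 13586 and 13796 CPM in N2. A list of 10 adult markers summed to 679 and 725 CPM in GR1395 and 902 and 1076 CPM in N2, of which cpr-4, a cathepsin gene also expressed in the larval gut, made up 674 and 720 CPM in GR1395 and 898 and 1073 CPM in N2. None of the genes the array was built from was called. The gene mlt-10 had 6.51 and 9.93 CPM in GR1395 and 9.36 and 9.6 CPM in N2 (log2 fold change -0.21 ± 0.16 SE, edgeR adjusted p = 0.411). The gene ttx-3, a homeobox gene, had 1.94 and 1.89 CPM in GR1395 and 2.04 and 2.01 CPM in N2 (adjusted p = 0.837).

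GR1395 differed from N2 in 2415 of the 15024 tested genes, 16.1%, at an adjusted p under 0.05 in the edgeR quasi-likelihood test. Of these, 1191 genes (7.93% of those tested) were higher in GR1395 and 1224 (8.15%) were lower. Most differences were small. The called genes had a median absolute log2 fold change of 0.49, and 217 genes (1.44%) rose and 311 (2.07%) fell at least 2-fold. At 4-fold or more the falls outnumbered the rises, 163 against 60. The count rested on 2 libraries above all: it was 656 without GR1395 replicate 1 and 928 without N2 replicate 2, 1526 without GR1395 replicate 2 and 3428 without N2 replicate 1. Scaling by library totals alone moved the split to 1413 higher and 927 lower. The percentages 7.93% and 8.15% are the background against which the gene lists below are read, since each list was chosen with results of these data known and carries no test of its own.

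**Figure D1:**
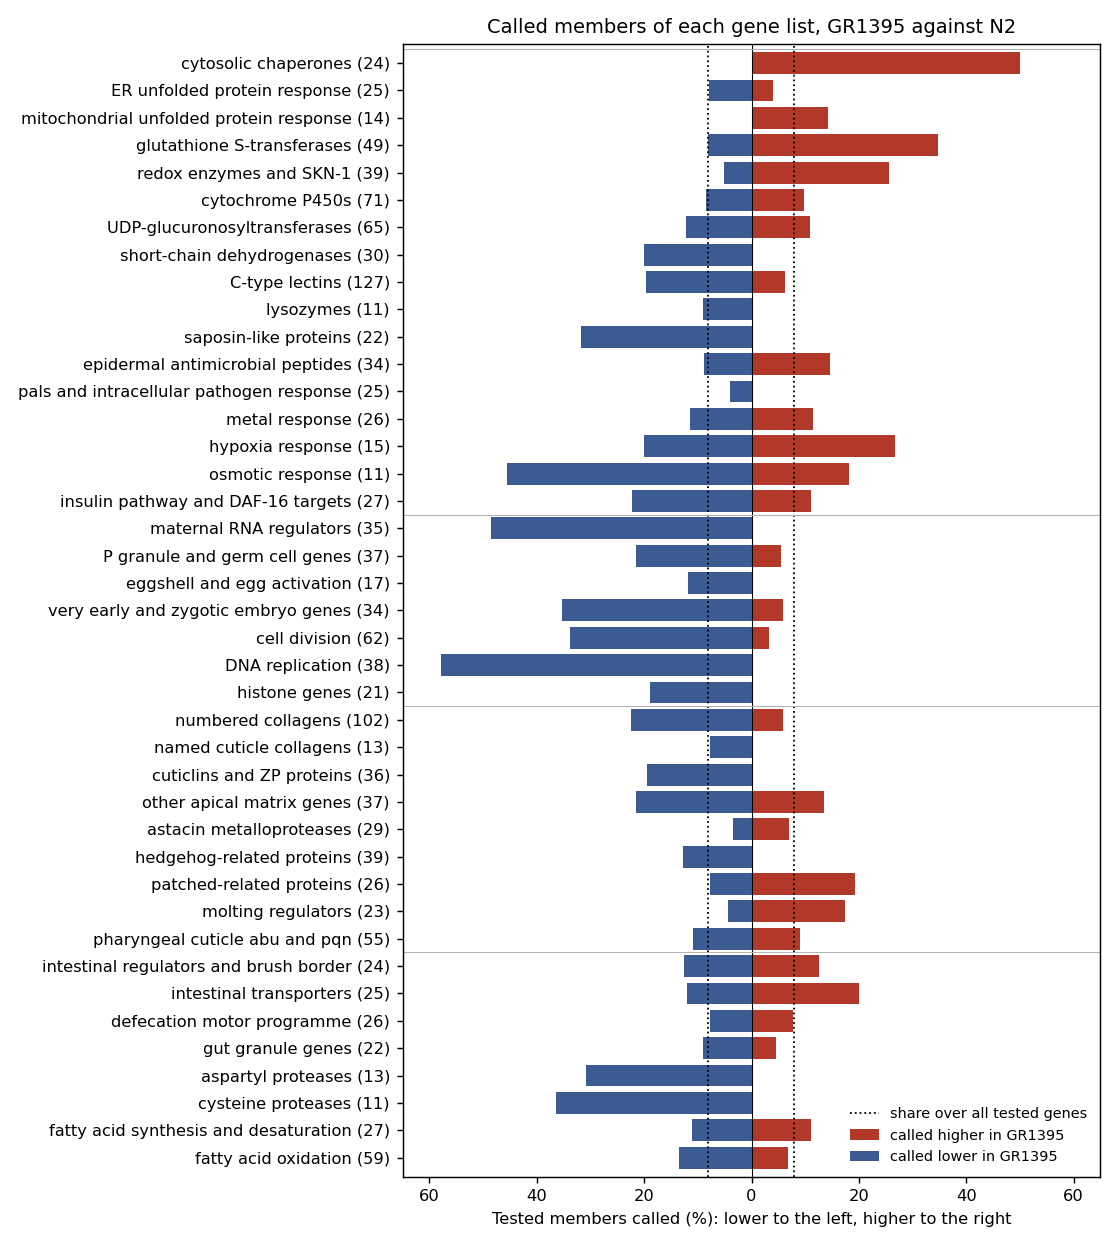
Percentage of the tested members of each gene list with 10 or more of them that were called higher (red, to the right) or lower (blue, to the left) in GR1395 against N2 at an edgeR adjusted p under 0.05; the number of tested members is in parentheses, dotted lines mark 7.93% and 8.15%, the shares over all tested genes, and grey lines divide the stress, maternal, cuticle and gut lists. Among these lists cytosolic chaperones and glutathione S-transferases reach furthest to the right, and DNA replication genes and maternal RNA regulators reach furthest to the left.

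Heat-inducible chaperones were higher in GR1395, while the abundant hsp-1 and hsp-90 were not called. Of 24 cytosolic chaperone genes tested, 12 rose, 9 of them at least 2-fold, and none fell, with a median log2 fold change of 0.25 over the 24 against 0.012 over all genes. The small heat shock protein gene hsp-16.2, whose product holds unfolding proteins in solution, had 30.5 and 18.7 CPM in GR1395 against 5.65 and 5.36 CPM in N2, a log2 fold change of 2.16 ± 0.22 (SE, adjusted p = 0.00122). Both GR1395 libraries stood above both N2 libraries, and the GR1395 libraries were further apart from each other than the N2 libraries. Its divergent neighbour hsp-16.41, within the same span of chromosome V from 1804334 to 1805875 (WBcel235), had 21.1 and 14 CPM in GR1395 and 5.58 and 3.42 CPM in N2 (log2 fold change 1.97 ± 0.35, adjusted p = 0.0207). F44E5.5, a heat-inducible gene of the HSP70 family, had 52.1 and 39.2 CPM in GR1395 and 14.9 and 12.8 CPM in N2 (log2 fold change 1.72 ± 0.17, adjusted p = 0.000564), and its near-identical neighbour F44E5.4 had 55.2 and 36.4 CPM in GR1395 and 14.5 and 13 CPM in N2 (1.73 ± 0.19, adjusted p = 0.00155). Reads of F44E5.4 and F44E5.5, and of the paired hsp-16 genes, could have been divided between the copies in counting (F44E5.4 and F44E5.5 adjoin at 11757107 to 11761861 on chromosome II), so each of these values is uncertain as to the copy.

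Of the chaperone rises under 2-fold, the HSP70 cochaperone gene unc-23 had 124 and 121 CPM in GR1395 and 92.1 and 82.2 CPM in N2 (log2 fold change 0.50 ± 0.08, adjusted p = 0.00205), and kept its call without any 1 library. The constitutive HSP70 gene hsp-1 had 3464 and 4033 CPM in GR1395 against 3485 and 3487 CPM in N2 (log2 fold change 0.10 ± 0.09, adjusted p = 0.463). The gene hsp-90 had 3030 and 3214 CPM in GR1395 against 2818 and 2869 CPM in N2 (0.13 ± 0.08, adjusted p = 0.276). The gene of the heat shock factor itself, hsf-1, had 51.1 and 48.9 CPM in GR1395 and 45.1 and 42.8 CPM in N2 (0.19 ± 0.08, adjusted p = 0.113). Of the 8 other small heat shock protein genes 4 rose and 1 fell. The rises were of hsp-12.6 by 1.58, hsp-12.3 by 1.22, hsp-43 by 0.30 and hsp-17 by 0.29 on the log2 scale, and numbered 1 without GR1395 replicate 1 or N2 replicate 1 and 2 without replicate 2 of HW3826 or of N2. The gene that fell, sip-1, which encodes a small heat shock protein of oocytes and embryos, had 15.6 and 19.6 CPM in GR1395 and 37.4 and 54.8 CPM in N2 and fell by 1.39 on the log2 scale (SE 0.27, adjusted p = 0.0282). Against HW3826, tested in the same fit, 9 of the 12 raised chaperone genes were also higher in GR1395: HW3826 had 6 and 6.66 CPM of hsp-16.2. The 12 were picked as high in the same GR1395 libraries, so part of this agreement is built in. The share over all raised genes was not counted. The calls of hsp-16.2, hsp-16.41 and F44E5.4 were lost without N2 replicate 2 (highest adjusted p 0.0846, 0.154 and 0.0977), that of sip-1 without N2 replicate 2 or GR1395 replicate 1 (highest adjusted p 0.14), and the count of raised chaperone genes was 6 without N2 replicate 2 and 8 without GR1395 replicate 1.

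In the list of the unfolded protein response of the endoplasmic reticulum, 1 of 25 genes rose and 2 fell, with a median log2 fold change of -0.13. The falls numbered 0 without GR1395 replicate 1, 1 without N2 replicate 2, 8 without N2 replicate 1, and 8 when the trend with gene length was removed. Its chaperone gene hsp-4, a BiP gene that reports this stress, had 116 and 115 CPM in GR1395 and 83.9 and 97.5 CPM in N2 (log2 fold change 0.35 ± 0.08, adjusted p = 0.0134), a call lost when either GR1395 library was left out. The more abundant BiP gene hsp-3 was not called, with 1893 and 2210 CPM in GR1395 and 2304 and 2413 CPM in N2 (-0.20 ± 0.09, adjusted p = 0.144). Of 14 mitochondrial genes, 2 rose, the transcription factor gene atfs-1 by 0.25 and the chaperone gene hsp-6 by 0.26 (adjusted p = 0.041 and 0.0389). The calls of hsp-6 and atfs-1 were both lost when any library other than N2 replicate 1 was left out (highest adjusted p 0.171 and 0.198).

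Glutathione S-transferases, which join glutathione to electrophiles, were also often higher in GR1395. Of 49 genes tested, 17 rose, 8 of them at least 2-fold, and 4 fell, with a median log2 fold change of 0.26. The SKN-1 reporter gene gst-4 had 63.5 and 57.8 CPM in GR1395 against 24.6 and 29.97 CPM in N2, with both strains' libraries well apart. Among less abundant members, gst-12 had 9.43 and 6.86 CPM in GR1395 and 2.98 and 3.35 CPM in N2 (log2 fold change 1.37 ± 0.18, adjusted p = 0.000508). The gene gst-3 had 9.86 and 9.71 CPM in GR1395 and 5.65 and 5.04 CPM in N2 (0.87 ± 0.14, adjusted p = 0.00206). The rises of gst-1, gst-3, gst-4, gst-6, gst-12 and gst-13 kept an adjusted p under 0.05 without any 1 library. The falls were of gst-26, gst-27, gst-28 and gst-42, by 0.44, 0.40, 0.44 and 0.30 on the log2 scale. The falls of gst-26 and gst-27 were lost without GR1395 replicate 1 (adjusted p = 0.09 and 0.0994), that of gst-28 without GR1395 replicate 2 or N2 replicate 2 (up to 0.162), and that of gst-42 without either GR1395 library or N2 replicate 2 (up to 0.14). The falls numbered 1 without GR1395 replicate 1 and 2 without GR1395 replicate 2 or N2 replicate 2. The count of raised genes was 6 without GR1395 replicate 1 and 13 to 17 without any other library.

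The regulators of this response were higher as well. Transcripts of skn-1, the gene of the transcription factor, stood at 299 and 290 CPM in GR1395 and 228 and 198 CPM in N2 (log2 fold change 0.47 ± 0.08, adjusted p = 0.00306). Those of wdr-23, which encodes the repressor that marks SKN-1 for degradation, stood at 148 and 139 CPM in GR1395 and 109 and 104.1 CPM in N2 (0.43 ± 0.08, adjusted p = 0.00285). Neither gene's strains overlapped, and both kept their calls without any 1 library. HW3826 was also above N2 for skn-1, with 264.7 and 275.5 CPM (log2 fold change 0.34 ± 0.08, adjusted p = 0.0281). The test between GR1395 and HW3826 did not call skn-1 (adjusted p = 0.34). Over the list of 39 redox genes that holds them, 10 rose and 2 fell: the rises included sesn-1 (sestrin, 45.7 and 46.9 CPM in GR1395, 34.7 and 29.3 CPM in N2) and sod-4 (an extracellular superoxide dismutase, 53.4 and 42 CPM in GR1395, 31.3 and 33.7 CPM in N2). HW3826 had 48.4 and 55.37 CPM of sesn-1 and 29.04 and 26.28 CPM of sod-4. The most abundant member not called, the peroxiredoxin gene prdx-2, had 551 and 541 CPM in GR1395 and 602 and 675 CPM in N2 (log2 fold change -0.22, adjusted p = 0.0808). The 2 falls of the redox list were called in no fit without GR1395 replicate 1, GR1395 replicate 2 or N2 replicate 2, and numbered 7 without N2 replicate 1. The number of raised redox genes was 5 without GR1395 replicate 1, where sod-4 was among the lost calls (adjusted p = 0.0794).

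**Figure D2:**
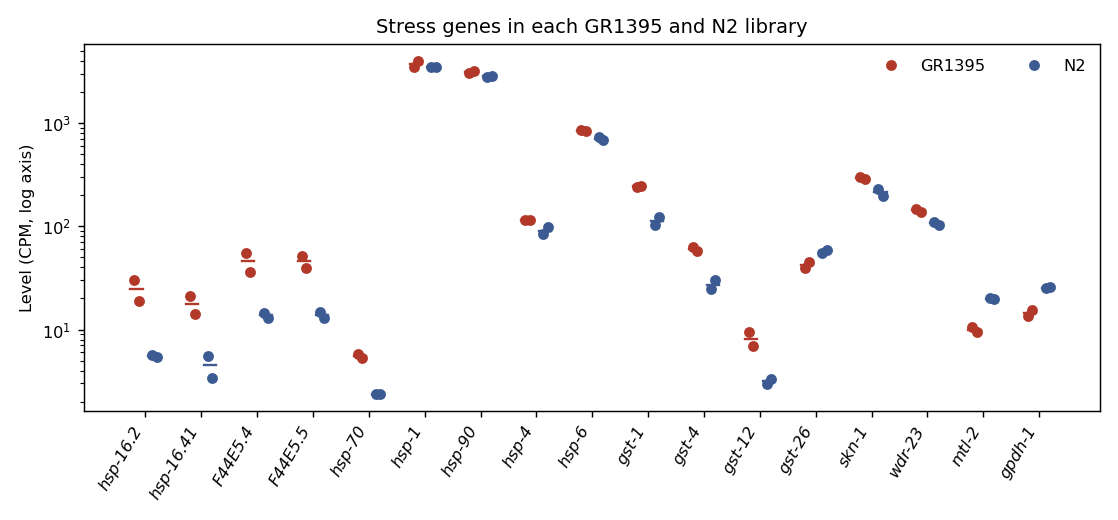
Level of 17 stress genes in CPM on a log axis, with GR1395 (red) left of N2 (blue) for each gene; points are libraries and short lines are means of 2 libraries. The hsp-16, F44E5 and gst-12 points of GR1395 lie clear above those of N2, the points of the abundant hsp-1 and hsp-90 lie close together in both strains, and mtl-2 and gpdh-1 lie lower in GR1395.

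Among 71 cytochrome P450 genes 7 rose and 6 fell (9.86% and 8.45%), near the shares over all genes. Among 65 UDP-glucuronosyltransferase genes, whose products attach sugars, 7 rose and 8 fell. Among 30 short-chain dehydrogenase genes none rose and 6 fell. Among 5 flavin monooxygenase genes, fmo-2 rose by 2.57 on the log2 scale and none fell, a call lost when any 1 N2 or HW3826 library was left out (highest adjusted p 0.204). There were 3 P450 rises and 1 fall without GR1395 replicate 1, and the same counts without N2 replicate 2. The UDP-glucuronosyltransferase rises numbered 3 and 2 in those fits, and the falls 4 without GR1395 replicate 2 and 5 without N2 replicate 1. For the dehydrogenases the count was 3 without GR1395 replicate 1 and 14 without N2 replicate 1. Among the members that kept their calls without any 1 library, cyp-36A1 had 11.5 and 9.15 CPM in GR1395 and 5.18 and 5.87 CPM in N2 (log2 fold change 0.90). The gene ugt-53 had 18.4 and 20.2 CPM in GR1395 and 13.3 and 11.5 CPM in N2 (0.64), whereas ugt-51 had 19.1 and 18.6 CPM in GR1395 and 32.1 and 26.2 CPM in N2 (-0.62). The xylulose reductase gene dhs-21 had 24.9 and 26 CPM in GR1395 and 41.2 and 43 CPM in N2 (-0.73).

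Called genes of the metal, hypoxia, osmotic and insulin lists went both ways. Of 26 metal response genes 3 rose, the bZIP genes zip-10 and zip-5 and the cadmium response gene cdr-2, by 1.66, 0.56 and 0.42 on the log2 scale, and 3 fell. The rises numbered 1 without GR1395 replicate 1 and 5 without N2 replicate 1. The metallothionein gene mtl-2, whose product binds cadmium and zinc in the gut, had 10.5 and 9.53 CPM in GR1395 against 20.2 and 19.7 CPM in N2, a log2 fold change of -0.996 ± 0.10 (adjusted p = 9.56e-05). Its partner mtl-1 had 14.9 and 10.7 CPM in GR1395 and 15.8 and 15.9 CPM in N2 (-0.30 ± 0.13, adjusted p = 0.14). The glycerol-3-phosphate dehydrogenase gene gpdh-1, which makes glycerol under osmotic stress, had 13.5 and 15.5 CPM in GR1395 and 25.4 and 25.6 CPM in N2 (-0.82 ± 0.09, adjusted p = 0.000227). Libraries within a strain agreed within 2 CPM for gpdh-1 and mtl-2. Of 15 hypoxia genes 4 rose and 3 fell. The cystathionine lyase gene cth-2 rose, with 171 and 151 CPM in GR1395 and 114 and 111 CPM in N2 (0.52 ± 0.08, adjusted p = 0.00167), and the sulfide oxidase gene sqrd-1 fell, with 17.4 and 16.24 CPM in GR1395 and 22.2 and 22.2 CPM in N2 (-0.40 ± 0.09, adjusted p = 0.0105), a call lost without GR1395 replicate 2 (adjusted p = 0.0721). The hypoxia rises numbered 1 without GR1395 replicate 1 and 2 without N2 replicate 2. The falls numbered 1 when either GR1395 library or N2 replicate 2 was left out, and 5 without N2 replicate 1. Of 11 osmotic genes 5 fell and 2 rose; the kinase gene wnk-1, which acts upstream of gpdh-1, rose, with 230 and 221 CPM in GR1395 and 173 and 140 CPM in N2 (0.53 ± 0.09, adjusted p = 0.00301). The transcription factor gene daf-16, the effector of the insulin pathway, had 194 and 170 CPM in GR1395 and 124 and 103 CPM in N2 (0.68 ± 0.10, adjusted p = 0.00134), while over its pathway and targets 3 of 27 rose and 6 fell. HW3826 was also above N2 for wnk-1 (218.7 and 213.9 CPM, adjusted p = 0.00961) and daf-16 (150 and 166.8 CPM, adjusted p = 0.0144). The rises numbered 1 in the osmotic list when either GR1395 library or N2 replicate 2 was left out, and 1 in the insulin list without GR1395 replicate 1 or N2 replicate 2. The count of lowered insulin genes was 3 without GR1395 replicate 2 or N2 replicate 2, and that of osmotic genes 2 without GR1395 replicate 1 and 3 without GR1395 replicate 2 or N2 replicate 2.

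Among genes linked to immunity, lectins and saposin-like genes were more often lower than higher. C-type lectins, a large family of secreted proteins with sugar-binding folds, had 25 of 127 tested genes lower and 8 higher, 19.7% and 6.3%. The table held 239 members, and those below the filter were not tested. The lectin clec-86 had 2.36 and 2.88 CPM in GR1395 and 8.35 and 10.4 CPM in N2 (log2 fold change -1.85 ± 0.17, adjusted p = 4.78e-05). The gene clec-48 had 20.6 and 27.6 CPM in GR1395 and 48.9 and 46.6 CPM in N2 (-0.99 ± 0.13, adjusted p = 0.00102). The rise of clec-17 was the clearest of the other direction, with 35.5 and 29 CPM in GR1395 and 16.1 and 14.9 CPM in N2 (1.06 ± 0.11, adjusted p = 0.000146). HW3826 was also low for clec-86 (3.54 and 3.40 CPM) and not raised for clec-17 (15 and 17.3 CPM). Of 22 saposin-like genes, whose products permeabilise membranes of ingested bacteria, 7 fell and none rose. The most abundant of them, spp-14, had 586 and 545 CPM in GR1395 and 813 and 1051 CPM in N2 (-0.72 ± 0.11, adjusted p = 0.00206). The gene spp-5 had 258 and 256 CPM in GR1395 and 361 and 410 CPM in N2 (-0.58 ± 0.08, adjusted p = 0.000854). The genes spp-2, spp-4 and spp-5 all fell and kept their calls without any 1 library. Epidermal antimicrobial peptides rose in 5 of 34 cases and fell in 3, but the 5 rises, of fip-6 and 4 cnc genes under 3 CPM, were not called without GR1395 replicate 1 or without N2 replicate 1; the list had 8 rises without GR1395 replicate 2 and 1 without N2 replicate 2. Its falls numbered 0 without N2 replicate 2, 1 without GR1395 replicate 2 and 5 without GR1395 replicate 1 or N2 replicate 1. The lectin rises numbered 2 without GR1395 replicate 1 and 5 without N2 replicate 2.

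Many maternal RNAs were lower in GR1395, most of those called by more than 2-fold. Of 35 genes that encode RNA regulators placed in the oocyte, 17 fell, 14 of them at least 2-fold, and none rose, 48.6% against the background of 8.15%. The median over the 35 was -0.62, and in 26 of them (74.3%, against 28.8% of all genes) both GR1395 libraries were below both N2 libraries. The largest falls of this list included genes whose products set the polarity of the early embryo and the fate of its cells. The zinc finger gene pos-1 had 2.82 and 6.84 CPM in GR1395 and 34.4 and 46.9 CPM in N2. The gene era-1, whose RNA is placed at the front of the embryo, had 1.25 and 2.31 CPM in GR1395 and 12.6 and 17.9 CPM in N2. The polarity genes mex-5 and mex-6 had 4.08 and 6.06 CPM, and 1.23 and 2.75 CPM, in GR1395, against 19.4 and 22.6 CPM, and 9.92 and 14.2 CPM, in N2 (log2 fold changes -2.06 ± 0.27 and -2.63 ± 0.45, adjusted p = 0.00631 and 0.0237). The RNA-binding protein genes spn-4 and mex-1 had 5.02 and 8.44 CPM, and 2.02 and 3.19 CPM, in GR1395, against 27.2 and 34.9 CPM, and 10.5 and 14.8 CPM, in N2 (-2.22 and -2.29, adjusted p = 0.0111 and 0.00599). For each of these 6 genes the strains did not overlap, GR1395 replicate 1 was the lowest library and N2 replicate 2 the highest of the 4.

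These falls kept their sign under every alternative, but the calls were not stable. The log2 fold change of pos-1 lay between -3.85 and -2.57 and that of mex-6 between -3.29 and -2.14 over the alternatives, while their adjusted p reached 0.218 and 0.168 and passed 0.05 without any 1 N2 or HW3826 library. The calls of mex-5 and spn-4 were lost when either N2 library was left out (highest adjusted p 0.115 for both), and those of era-1 and mex-1 without N2 replicate 2 (adjusted p = 0.062 and 0.0508). The count of lowered regulators was 6 without N2 replicate 2, against 14 to 17 without any other library. The genes that kept their calls throughout were oma-1, oma-2, pie-1, gld-3, puf-6 and puf-7. Of these pie-1, which represses transcription in the germline precursor cells, had 2.04 and 2.39 CPM in GR1395 and 5.51 and 6.34 CPM in N2 (log2 fold change -1.42 ± 0.17, adjusted p = 0.000233). The poly(A) polymerase partner gene gld-3 had 7.22 and 7.45 CPM in GR1395 and 12.6 and 14.1 CPM in N2 (-0.87 ± 0.12, adjusted p = 0.000571).

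The abundant regulators of the list were not called. The La-related protein gene larp-1 had 749 and 823 CPM in GR1395 and 727 and 630 CPM in N2 (log2 fold change 0.21, adjusted p = 0.128). The ataxin-2 gene atx-2 had 236 and 246 CPM in GR1395 and 239 and 213 CPM in N2 (0.09, adjusted p = 0.449). The Nanos-family gene nos-3 had 90.7 and 99.3 CPM in GR1395 and 98.8 and 87.4 CPM in N2 (0.03, adjusted p = 0.852). As these 3 hold much of the summed level of the list, the sum was 1693 and 1831 CPM in GR1395 and 1811 and 1675 CPM in N2. The P granule and germ cell list was mixed, with 8 of 37 genes lower and 2 higher and a median of -0.09. Its falls included meg-4, a scaffold of embryonic P granules, with 0.106 and 0.168 CPM in GR1395 and 1.24 and 1.83 CPM in N2 (-3.49 ± 0.46, adjusted p = 0.000495). The constitutive P granule genes glh-1 and pgl-1, markers of the 2 germline precursor cells of the L1, were not called: glh-1 had 41 and 42.2 CPM in GR1395 and 36.9 and 43 CPM in N2 (0.06 ± 0.09, adjusted p = 0.698). The gene pgl-1 had 26.9 and 29.7 CPM in GR1395 and 31 and 33.8 CPM in N2 (-0.20 ± 0.09, adjusted p = 0.142). In whole animals, fewer cells of a type and less RNA per cell cannot be told apart. The count of lowered P granule genes was 3 without GR1395 replicate 1 and 4 without N2 replicate 2.

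Genes switched on in the early embryo were also often lower. Of 34 such genes tested, 12 fell and 2 rose, with a median of -1.21, and a further 20 of the 54 in the list were below the filter. The list served as the marker of embryos, and whether unhatched embryos were among the larvae was not tested. The very early transcripts vet-2 and sdz-28 had 3.24 and 4.89 CPM, and 0.176 and 0.441 CPM, in GR1395, against 8.26 and 10.1 CPM, and 1.15 and 1.96 CPM, in N2 (log2 fold changes -1.19 ± 0.20 and -2.37 ± 0.42). The Notch ligand gene apx-1 had 2.43 and 2.31 CPM in GR1395 and 4.48 and 4.20 CPM in N2 (-0.87 ± 0.17, adjusted p = 0.00521). Of 17 eggshell and egg activation genes 2 fell. The chitin-binding eggshell gene cbd-1 was not called, with 6.63 and 7.11 CPM in GR1395 and 7.53 and 6.85 CPM in N2 (-0.07, adjusted p = 0.774). The count of lowered embryo genes was 4 without N2 replicate 2 and 6 without GR1395 replicate 1. For all 17 lowered maternal regulators and all 12 lowered embryo genes, both HW3826 libraries stood above both GR1395 libraries. By the test between GR1395 and HW3826, 15 of the 17 and 10 of the 12 were lower in GR1395. These genes were picked as low in the same GR1395 libraries, so part of this agreement is built in. The share over all lowered genes was not counted.

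**Figure D3:**
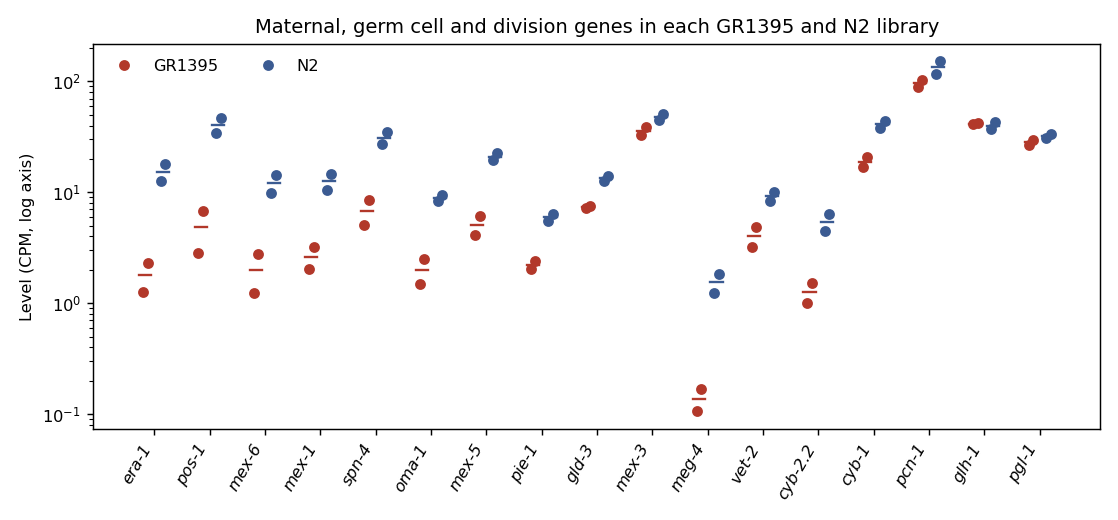
Level of 17 maternal, germ cell and division genes in CPM on a log axis, with GR1395 (red) left of N2 (blue) for each gene; points are libraries and short lines are means of 2 libraries. From era-1 to cyb-1 every GR1395 point lies below the N2 points, whereas glh-1 and pgl-1 at the right lie close together in both strains.

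Genes of the cell cycle were lower too, by smaller steps. Of 38 DNA replication genes 22 fell and none rose (57.9%), with a median of -0.32. In 33 of the 38 (86.8%, against 28.8% of all tested genes) the GR1395 libraries were both below the N2 libraries. None of the falls reached 2-fold. The sliding clamp gene pcn-1 had 88.7 and 103 CPM in GR1395 and 116 and 151 CPM in N2 (log2 fold change -0.48 ± 0.12, adjusted p = 0.0287). The gene psf-3, a subunit of the GINS complex of the replication fork, had 3.98 and 4.49 CPM in GR1395 and 6.75 and 9.64 CPM in N2 (-0.96 ± 0.18, adjusted p = 0.00501). Ribonucleotide reductase was not called: rnr-1 had 121 and 141 CPM in GR1395 and 142 and 148 CPM in N2 (-0.15, adjusted p = 0.246). Of 62 cell division genes 21 fell and 2 rose. The B-type cyclin gene cyb-2.2, which drives entry into mitosis, had 1 and 1.51 CPM in GR1395 and 4.46 and 6.38 CPM in N2 (-2.12 ± 0.28, adjusted p = 0.00112). The gene cyb-3 had 42.7 and 56.5 CPM in GR1395 and 94.2 and 127 CPM in N2 (-1.16 ± 0.22, adjusted p = 0.0243). The rise of cki-1, which encodes an inhibitor of cyclin-dependent kinases, went the other way, with 23.1 and 22.8 CPM in GR1395 and 16.1 and 16.6 CPM in N2. In all 22 lowered replication genes and all 21 lowered division genes GR1395 replicate 1 was below GR1395 replicate 2. In 21 and 19 of them N2 replicate 2 was above N2 replicate 1. How often all lowered genes had this order was not counted, so it is not shown to be particular to these lists. Without GR1395 replicate 1 none of the replication genes and 4 of the division genes were called lower (psf-3 at an adjusted p of 0.0556), and without N2 replicate 2 there were 7 of each (pcn-1 up to 0.16). The call of cyb-3 was lost when either N2 library was left out (highest adjusted p 0.18).

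Cuticle genes fell more often than they rose. Of 102 numbered collagens tested, of 156 in the table, 23 fell and 6 rose, 22.5% and 5.88%, with a median of -0.12. Collagens are the main protein of the cuticle and their genes are switched on in waves before each molt. The abundant col-147 had 171 and 163 CPM in GR1395 and 273 and 330 CPM in N2 (log2 fold change -0.85 ± 0.09, adjusted p = 0.000146). The gene col-160 had 236 and 226 CPM in GR1395 and 299 and 322 CPM in N2 (-0.43 ± 0.08, adjusted p = 0.00307). GR1395 libraries of col-147 and col-160 agreed within 10 CPM and lay below both N2 libraries. The largest fall was of col-149, with 12.4 and 19.6 CPM in GR1395 and 75.2 and 66.6 CPM in N2 (-2.16 ± 0.26, adjusted p = 0.00779), and HW3826 lay between the other strains with 36.8 and 48.7 CPM; the call was lost when either N2 library was left out (highest adjusted p 0.109). Of the collagen rises, those of col-140 and col-184 reached 2.53 and 2.44 on the log2 scale at levels under 1 CPM, and their calls were lost without N2 replicate 1 or GR1395 replicate 1 (highest adjusted p 0.26 and 0.194), the call of col-140 also without N2 replicate 2, GR1395 replicate 2 or HW3826 replicate 2. The rise of col-181 kept its call without any 1 library, with 2.39 and 1.68 CPM in GR1395 and 0.539 and 0.625 CPM in N2 (1.81 ± 0.31, adjusted p = 0.00252). For all 23 lowered collagens both HW3826 libraries were above both GR1395 libraries, and for 22 the test between GR1395 and HW3826 was passed. The 23 were picked as low in the same GR1395 libraries, and the share over all lowered genes was not counted. The number lowered was 11 without GR1395 replicate 1 and 13 without N2 replicate 2, and the number raised was 1 without GR1395 replicate 1 and 3 without N2 replicate 1.

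Several zona pellucida and other apical matrix genes were lower. Of 36 cuticlin and zona pellucida genes 7 fell and none rose. The zona pellucida gene noah-2 had 5 and 6.82 CPM in GR1395 and 15.3 and 15.7 CPM in N2 (log2 fold change -1.40 ± 0.14, adjusted p = 0.000104). Of 37 other apical matrix genes 8 fell, 5 of them at least 2-fold, and 5 rose, with a median of 0.00. The lipocalin genes lpr-6 and lpr-3, which organise the precuticle, had 1.46 and 1.59 CPM, and 1.55 and 1.95 CPM, in GR1395, against 4.62 and 5.40 CPM, and 5.32 and 3.82 CPM, in N2 (-1.72 ± 0.18 and -1.39 ± 0.20, adjusted p = 0.000112 and 0.00105). The matrix protein gene sym-1, with leucine-rich repeats, had 7.55 and 9.06 CPM in GR1395 and 19.4 and 21.1 CPM in N2 (-1.29 ± 0.11, adjusted p = 3.72e-05). The libraries of the strains stood apart for all 3 of these genes. The protease inhibitor gene mlt-11 had 1.16 and 1.55 CPM in GR1395 and 3.87 and 3.26 CPM in N2 (-1.40 ± 0.22, adjusted p = 0.00167). The gene acn-1, an inactive peptidase-like gene needed for molting, had 12.3 and 13.5 CPM in GR1395 and 22.6 and 21.6 CPM in N2 (-0.78 ± 0.09, adjusted p = 0.000291). For noah-2, lpr-3, lpr-6, sym-1, mlt-11 and acn-1 the strains did not overlap and the calls held without any 1 library. All 8 lowered genes of the apical matrix list were also lower than in HW3826 by the test. They too were picked as low in the same GR1395 libraries, with no share over all lowered genes counted. Of the abundant enzymes of the list, the peroxidase gene mlt-7 had 90.2 and 88.1 CPM in GR1395 and 84.3 and 74.5 CPM in N2 (0.17, adjusted p = 0.167) and the convertase gene bli-4 had 160 and 167 CPM in GR1395 and 158 and 140 CPM in N2 (0.14, adjusted p = 0.259). The cuticlin count was 3 without GR1395 replicate 1 and 4 without N2 replicate 1, and the rises of the matrix list numbered 1 without GR1395 replicate 1 or N2 replicate 2, 2 without HW3826 replicate 2 and 3 without GR1395 replicate 2 or HW3826 replicate 1.

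Of 23 molting regulators 4 rose and 1 fell (17.4% and 4.35%). nhr-23, the nuclear receptor gene that times each molt, had 22.7 and 24.1 CPM in GR1395 and 25.2 and 20.7 CPM in N2 (log2 fold change 0.02 ± 0.10, adjusted p = 0.9). The gene nhr-25, a receptor gene of the hypodermis, had 41.7 and 45.2 CPM in GR1395 and 40.03 and 32.3 CPM in N2 (0.27 ± 0.10, adjusted p = 0.0973). The fall was of lin-42, the period-like gene, with 3.92 and 4.62 CPM in GR1395 and 6.12 and 6.29 CPM in N2 (-0.54 ± 0.14, adjusted p = 0.024), which was lost without GR1395 replicate 1 or N2 replicate 2 (highest adjusted p 0.192). Hedgehog-related genes fell in 5 of 39 cases and patched-related genes rose in 5 of 26 and fell in 2. Of the hedgehog-related genes, grl-4 had 56.5 and 59.6 CPM in GR1395 and 81.2 and 81.3 CPM in N2 (-0.49 ± 0.08, adjusted p = 0.00178). The patched-related rises, 0.28 to 0.50 on the log2 scale, numbered 0 without N2 replicate 2, 1 without GR1395 replicate 1, 2 without GR1395 replicate 2 and 3 when either HW3826 library was left out. The hedgehog-related falls numbered 3 without GR1395 replicate 2 or N2 replicate 2. The rises of the molting regulators numbered 0 without GR1395 replicate 1 and 2 without GR1395 replicate 2 or N2 replicate 2.

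In the gut, several digestive enzymes were lower, and intestinal regulators and brush border genes were called in both directions. All called cysteine proteases (4 of 11, 36.4%), aspartyl proteases (4 of 13, 30.8%) and lysosomal lipases (3 of 6, 50%) fell. Over all tested genes 8.15% were called lower. The most abundant of them, the aspartyl protease gene asp-1, had 4294 and 4608 CPM in GR1395 and 5688 and 5568 CPM in N2 (log2 fold change -0.34 ± 0.08, adjusted p = 0.0167). The gene cpr-4, a cathepsin B-like gene, had 674 and 720 CPM in GR1395 and 898 and 1073 CPM in N2 (-0.50 ± 0.10, adjusted p = 0.00585). The falls of asp-8, with 13.6 and 14.1 CPM in GR1395 and 25.6 and 28.4 CPM in N2 (-0.97 ± 0.09, adjusted p = 6.86e-05), and of the lipase gene lipl-1, with 8.66 and 6.06 CPM in GR1395 and 13.9 and 17.1 CPM in N2 (-1.07 ± 0.16, adjusted p = 0.00192), were larger and held without any 1 library. Those of asp-1 and cpr-4 were lost without GR1395 replicate 1 (adjusted p = 0.144 and 0.0668). In 10 of the 11 cysteine protease genes (90.9%, against 28.8% of all tested genes) both GR1395 libraries were below both N2 libraries. The lowered aspartyl proteases numbered 1 and the lowered cysteine proteases 2 without GR1395 replicate 1, and the cysteine protease list had 8 without N2 replicate 1.

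Of 24 intestinal regulators and brush border genes 3 rose and 3 fell (12.5% each, against 7.93% and 8.15% over all tested genes). The list summed to 5743 and 6015 CPM in GR1395 and 6721 and 6672 CPM in N2, sums that include the abundant act-5 given below. The rises numbered 0 without GR1395 replicate 1 and 1 without GR1395 replicate 2 or N2 replicate 2, and the falls 1 without GR1395 replicate 1 and 6 with the length trend removed. The esterase gene ges-1, a classical marker of gut cells, had 33.9 and 35.2 CPM in GR1395 and 35 and 36.9 CPM in N2 (log2 fold change -0.06 ± 0.08, adjusted p = 0.665). The gene elt-7, a GATA factor gene of the gut, had 16 and 15.2 CPM in GR1395 and 16.1 and 14.3 CPM in N2 (0.04 ± 0.10, adjusted p = 0.825). The main gut GATA factor gene elt-2 rose, with 15.6 and 13.4 CPM in GR1395 and 10.04 and 9.17 CPM in N2 (0.59 ± 0.11, adjusted p = 0.00399); HW3826 had 15.5 and 15.3 CPM. Of the genes of the microvilli, the bundling protein gene plst-1 had 95.5 and 97.6 CPM in GR1395 and 148 and 146 CPM in N2 (-0.61 ± 0.07, adjusted p = 0.000249). The gut actin gene act-5 had 1796 and 1970 CPM in GR1395 and 2378 and 2548 CPM in N2 (-0.39 ± 0.09, adjusted p = 0.00965). The filament organiser gene ifo-1 rose by 0.37 (adjusted p = 0.0172), a call lost without N2 replicate 2 or when either GR1395 library was left out (highest adjusted p 0.0952). The linker gene erm-1 was not called, with 430 and 462 CPM in GR1395 and 501 and 464 CPM in N2 (-0.11, adjusted p = 0.354). The calls of elt-2 and act-5 were lost without GR1395 replicate 1 (adjusted p = 0.0627 and 0.107).

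Transport and secretion genes of the gut moved individually. Of 25 transporters 5 rose and 3 fell (20% and 12%, sums 4578 and 4797 CPM in GR1395, 5396 and 5367 CPM in N2). The water channel gene aqp-8, of the excretory canal as well as the gut, had 27.8 and 34.3 CPM in GR1395 and 61.2 and 52 CPM in N2 (log2 fold change -0.87 ± 0.11, adjusted p = 0.000495). The drug efflux pump gene pgp-1 had 21.2 and 17 CPM in GR1395 and 10.9 and 12.6 CPM in N2 (0.71 ± 0.12, adjusted p = 0.00291), though less than the 25.0 and 28.1 CPM of HW3826. In the defecation list 2 of 26 rose and 2 fell, with 5 rises without N2 replicate 1 and 1 fall when either GR1395 library was left out. The proprotein convertase gene aex-5 had the smallest p of all rises, with 123 and 121 CPM in GR1395 and 27.9 and 29.7 CPM in N2, whereas nlp-40, which encodes the gut neuropeptide that triggers the expulsion step, fell, with 136 and 134 CPM in GR1395 and 175 and 198 CPM in N2 (-0.46 ± 0.08, adjusted p = 0.00247). In fat metabolism, the acetyl-CoA carboxylase gene pod-2 had 958 and 999 CPM in GR1395 and 715 and 641 CPM in N2 (0.53 ± 0.08, adjusted p = 0.00154), and 3 of 27 synthesis genes rose and 3 fell. These rises numbered 9 without N2 replicate 1 and 1 without any other library, and the falls 0 without GR1395 replicate 1 and 1 without N2 replicate 2. Oxidation genes rose in 4 of 59 cases and fell in 8, and of the 8 none was called without GR1395 replicate 1, 5 without GR1395 replicate 2 and 3 without N2 replicate 2. The 4 rises became 2 when either GR1395 library was left out and 0 without N2 replicate 2. The rises of the transporters numbered 2 without GR1395 replicate 1, HW3826 replicate 2 or N2 replicate 2, 3 without GR1395 replicate 2 or HW3826 replicate 1, and 8 without N2 replicate 1.

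**Figure D4:**
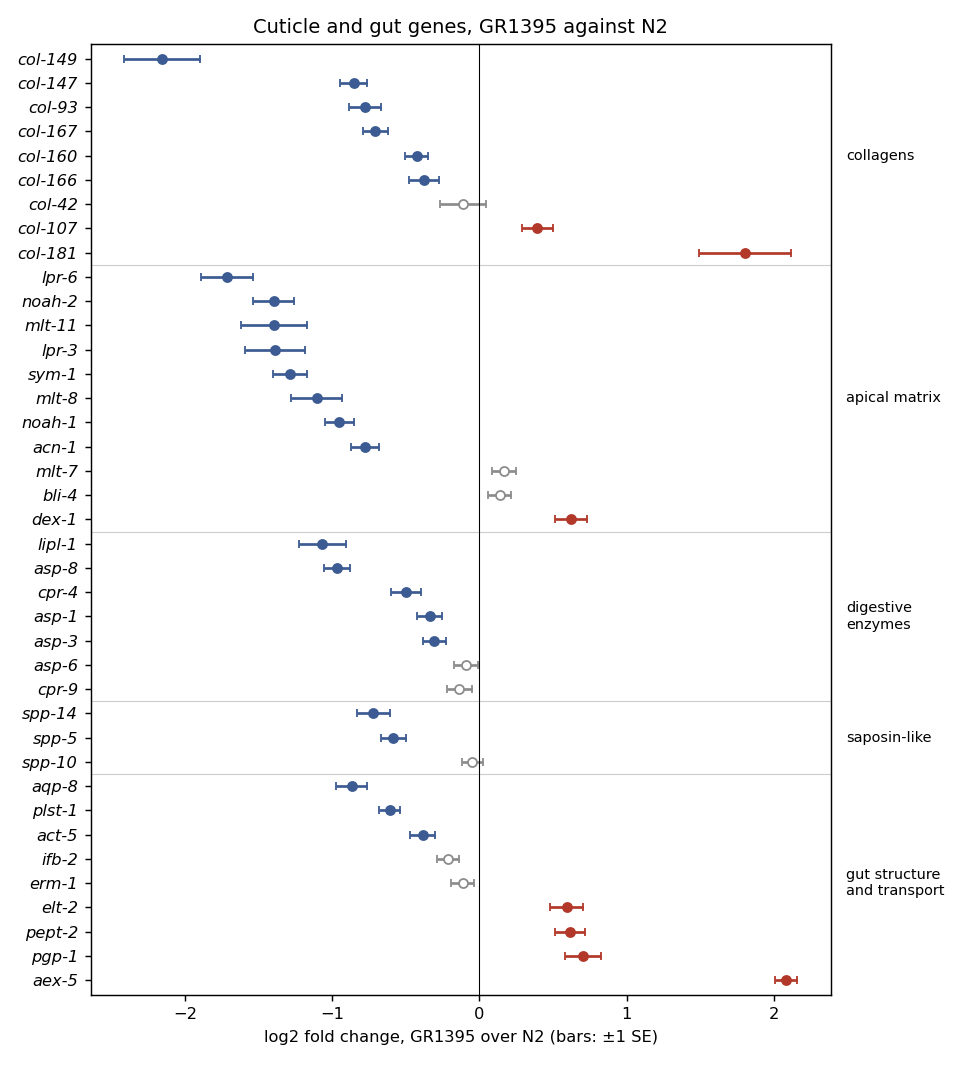
Log2 fold change of 39 cuticle and gut genes, GR1395 over N2, with bars of 1 SE from the edgeR fit of 6 libraries; filled points passed an adjusted p of 0.05 (red higher, blue lower in GR1395) and open grey points did not. The lipocalin, noah and sym-1 points lie left of -0.9, the abundant digestive enzymes lie between -0.5 and 0, and aex-5 lies at 2.08.

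Markers of other tissues were called as well, and their shares stand against 7.93% higher and 8.15% lower over all tested genes. Of 15 pharynx markers 6 rose and 1 fell (40% and 6.67%, sums 3195 and 3233 CPM in GR1395, 2848 and 2702 CPM in N2). Of 23 neuron markers 4 rose (17.4%) and none fell (sums 3448 and 3489 CPM in GR1395, 3354 and 3172 CPM in N2). Of 26 body wall muscle markers 4 rose and 4 fell (15.4% each). Of 14 hypodermis markers 2 rose (14.3%) and none fell (sums 5619 and 6599 CPM in GR1395, 5516 and 5525 CPM in N2). The muscle rises and falls both numbered 1 without GR1395 replicate 1, 2 without GR1395 replicate 2 and 6 without N2 replicate 1, with 2 rises when either HW3826 library was left out and 2 falls without N2 replicate 2. The hypodermis rises numbered 5 without N2 replicate 1 and 1 without GR1395 replicate 1. Without GR1395 replicate 1 no pharynx or neuron marker was called higher. Without GR1395 replicate 2 there were 2 pharynx and 1 neuron markers, and without N2 replicate 2 there were 1 and 0. There were 3 pharynx and 1 neuron markers when each library's trend with gene length was removed. N2 replicate 2 carried such a trend: its genes in the shortest length class, of a median 569 bases, lay 0.117 above the mean of the libraries on the log2 scale, and those in the longest class, of 2985 bases, 0.114 below. The part of tissue make-up and gene length in the falls and rises above was not tested. The largest rise among the hypodermis markers was of sams-1, the S-adenosylmethionine synthetase gene, with 1623 and 1895 CPM in GR1395 and 905 and 951 CPM in N2 (log2 fold change 0.92 ± 0.09, adjusted p = 9.56e-05). These levels of sams-1 are included in the hypodermis sums above, so those sums do not show a rise of the other markers.

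The called genes were spread over all chromosomes. The share called was 15.7% on chromosome I, 17.3% on II, 14.4% on III, 16.1% on IV, 17.2% on V and 15.3% on X, around the 16.1% of all tested genes, and 2 of 12 mitochondrial genes were called. Within the autosomes the direction of calls differed between arms and middle, although the excess of falls in the arms turned round when libraries were scaled by totals alone. Worm autosomes have a gene-dense middle that holds most essential genes and arms that hold many young gene families. When the span of each chromosome was cut into 3 equal parts, the outer parts of chromosomes I to V had 703 genes lower and 532 higher of 7418 tested (9.48% and 7.17%), and the middle parts had 355 lower and 477 higher of 5321 (6.67% and 8.96%). Of the 10 outer parts, 9 had more genes lower than higher, the exception being the left of chromosome III, with 6.77% lower and 8.03% higher, and all 5 middle parts had more higher than lower. The right part of chromosome IV had 11.2% lower and 6.71% higher, its left part 11% lower and 6.63% higher, and the middle of chromosome V 7.20% lower and 11.5% higher. On the X chromosome each part had slightly more genes higher than lower, for example 9.14% higher and 8.86% lower in the right part. Without GR1395 replicate 1 the outer parts had 224 lower and 118 higher and the middle parts 106 lower and 115 higher, and without N2 replicate 2 they had 287 lower and 202 higher against 145 lower and 149 higher. Scaled by library totals alone, the outer parts had 540 lower and 634 higher and the middle parts 261 lower and 570 higher, and with the length trend removed the middle parts had 434 lower and 413 higher.

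**Figure D5:**
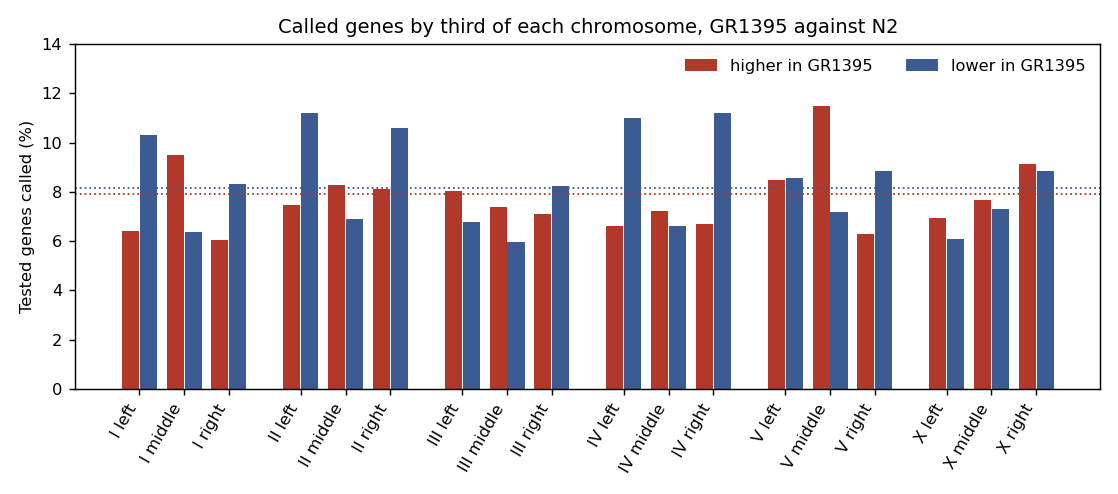
Percentage of tested genes called higher (red) or lower (blue) in GR1395 against N2, in 3 equal parts of the gene span of each chromosome; dotted lines mark 7.93% and 8.15%, the shares over all genes. In the middle parts of chromosomes I to V the red bar is the taller, and in 9 of their 10 outer parts the blue bar is.

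The windows of 1 Mb with the largest shares of calls held members of gene families among other genes. The densest, at 15000001 to 16000000 on chromosome II, had 10 of 32 tested genes called (31.2%). As the last window of the chromosome it held far fewer tested genes than the 126 of the window before it. Its share therefore rests on few genes. The window contains a cluster of glutathione S-transferase genes that split by direction. The genes gst-26, gst-27 and gst-28, which adjoin one another from 15163817 to 15167577, were lower. The genes gst-39, gst-31 and gst-35, from 15171163 to 15185389, were higher by 0.49, 1.04 and 0.78 on the log2 scale. Of these, gst-27 had 85.7 and 93.3 CPM in GR1395 and 110 and 127 CPM in N2. The gene gst-35 had 6.25 and 5.48 CPM in GR1395 and 2.93 and 3.91 CPM in N2. The calls of gst-26, gst-27, gst-39 and gst-35 were lost without GR1395 replicate 1 (highest adjusted p 0.09, 0.0994, 0.0839 and 0.105), that of gst-28 without GR1395 replicate 2 or N2 replicate 2 (0.162), and that of gst-31 without either GR1395 library or N2 replicate 2 (0.0723). The gst genes of the cluster are similar in sequence, so reads could have been divided between them.

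The window from 1000001 to 2000000 on chromosome II had 32 of 125 genes called (25.6%), 24 of them lower. The called genes there included members of the BTB and MATH domain families, which in worms recruit substrates for ubiquitination, though how often such genes were called was not compared with the rest of the window. The gene btb-6 had 0.176 and 0.399 CPM in GR1395 and 1.15 and 1.83 CPM in N2 (log2 fold change -2.40 ± 0.43, adjusted p = 0.00343), math-38 had 0.880 and 0.567 CPM in GR1395 and 2.37 and 2.14 CPM in N2 (-1.62 ± 0.32, adjusted p = 0.00533). The homeobox gene ceh-83 had 0.598 and 0.860 CPM in GR1395 and 2.42 and 4.15 CPM in N2 (-2.18 ± 0.32, adjusted p = 0.00139). HW3826 was near N2 for btb-6 (2.06 and 1.28 CPM) and ceh-83 (3.39 and 2.35 CPM) but below it for math-38 (0.610 and 0.336 CPM). In the opposite direction, fbxa-163 had 5.84 and 2.37 CPM in GR1395 and 0.657 and 0.580 CPM in N2 (2.74 ± 0.44, adjusted p = 0.00494), the largest log2 rise of any called gene with a mean of 2 CPM or more. The call was lost when either N2 library was left out (highest adjusted p 0.148). Another window, 12000001 to 13000000 on chromosome X, had 32 of 115 genes called (27.8%), 19 of them higher. Among the higher genes were 4 nspc genes, of a nematode-specific peptide family, and col-181. Other called genes there, such as cdf-2, which was lower, were of other kinds, and the called share of nspc genes was not counted.

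Some runs of neighbouring genes called in 1 direction marked family clusters, and others did not hold a single family. The longest held 6 genes, pud-1.2, pud-2.2, pud-3, pud-4, pud-2.1 and pud-1.1, within 2322038 to 2330930 on chromosome V, all lower by 0.66 to 1.61 on the log2 scale. In it pud-4 had 20.4 and 21.9 CPM in GR1395 and 53.0 and 76.1 CPM in N2 (-1.61 ± 0.19, adjusted p = 0.00297), and HW3826 was also low, with 28.8 and 35.9 CPM. The duplicated pud-1 and pud-2 copies could share reads. The hsp-16.1, hsp-16.48, hsp-16.49 and hsp-16.11 genes at 9087293 to 9090604 on chromosome V rose together by 1.68 to 3.04. They were apart from the hsp-16.2 and hsp-16.41 pair on the left arm of the same chromosome. The largest of these rises, of hsp-16.49, rests on 0.352 and 0.0446 CPM in N2, the latter below the floor of 3 counts, and 1.88 and 1.34 CPM in GR1395. Its log2 fold change lay between 2.19 and 5.10 over the alternatives. Collagens col-167, col-168, col-169 and col-170, at 6323488 to 6332611 on chromosome X, all fell, by 0.37 to 0.71: col-167 had 63.9 and 63.7 CPM in GR1395 and 95.6 and 113 CPM in N2. Of the skr genes, which encode the Skp1-like adaptors of F-box proteins, skr-8, skr-9, skr-12 and skr-13 at 17162097 to 17167792 on chromosome IV fell by 1.71 to 2.63; skr-12 had 0.299 and 0.231 CPM in GR1395 and 1.13 and 2.21 CPM in N2. The F-box genes fbxa-35, fbxa-36, fbxa-37 and fbxa-50, at 1284996 to 1297142 on chromosome III, rose by 0.61 to 2.23, with fbxa-37 at 15.3 and 11.4 CPM in GR1395 and 9.12 and 8.32 CPM in N2. At 9046039 to 9060181 on chromosome III, gst-1 stood in a run with ikke-1, R107.5 and cls-2, all higher, by 0.36 to 1.1. The second longest run, of 5 genes on chromosome II, held ebp-2, adbp-1, W02B12.1, rsp-2 and rsp-1 (log2 fold changes -0.62 to -0.27). Further mixed runs, K08E5.1 to unc-47 on III and duo-1 to nhr-68 on V, were higher. The largest falls in runs were of genes named by sequence, such as F14H3.3 to F14H3.6 on V (-3.8 to -3.01) and F02H6.3 on IV (-4.3). Of these, F14H3.3 and F02H6.3 kept their calls without any 1 library, and F14H3.4, F14H3.5 and F14H3.6 did not. The log2 fold change of F14H3.5 lay between -8.78 and -2.72 over the alternatives. In the run on chromosome II, adbp-1 kept its call without any 1 library, and ebp-2, W02B12.1, rsp-2 and rsp-1 did not. Many single calls of these runs rested on 1 library. Without GR1395 replicate 1 those of pud-1.1, pud-1.2, hsp-16.1 and fbxa-36 were lost (adjusted p = 0.0518, 0.102, 0.0574 and 0.0538). Without GR1395 replicate 1 or N2 replicate 2 those of pud-2.2, hsp-16.48, col-168, fbxa-37, fbxa-50 and ikke-1 were lost (up to 0.097, 0.0587, 0.103, 0.163, 0.221 and 0.151). Without either GR1395 library or N2 replicate 2 those of col-170, skr-8 and skr-9 were lost (up to 0.123, 0.159 and 0.226). The call of fbxa-35 was lost without GR1395 replicate 1 or either N2 library (up to 0.266), that of pud-3 without any GR1395 or HW3826 library (up to 0.0797), and those of hsp-16.2 and hsp-16.41 without N2 replicate 2, as given above.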

How the data were processed

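The authors deposited raw counts per gene with a gene length. Per the submitters' processing notes, the build was ce11 and HISAT2 (1.10.0) was used; its role, how reads were counted, with which annotation and whether by strand are not stated in any source used here. Overlapping, antisense and near-identical genes are therefore uncertain. The deposited log2 table was not used. Names and positions came from WBcel235 annotation by WormBase identifier, for 20105 of 20190 genes, and 85 were left unplaced. Counts were tested with edgeR 4.0.16 (R 4.3.3; quasi-likelihood, robust, TMM, default filter, 1 coefficient per strain, 6 libraries in 1 fit, 3 residual degrees of freedom), with Benjamini-Hochberg adjustment over 15024 genes; 5166 were not tested. The script was tested on simulated data. Alternatives were other scalings, filters, limma-voom 3.58.1, DESeq2 1.42.0, 4 libraries in the fit, a replicate block, a length correction and leaving out each library. Members and lists were chosen with earlier results of these data known. Named genes were drawn from the 15 largest rises and falls (mean of at least 2 CPM, no overlap). Per list the 5 largest called and 2 most abundant uncalled members were added. Called genes of the 3 densest windows and longest runs were added too. Not all of these genes are given here, and other genes were named after their values were seen. Same-numbered libraries did not deviate together (correlation 0.0135 between GR1395 and N2).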

Additional observations from a re-analysis of the deposited data

How the results depend on the processing

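The 2415 called genes of GR1395 against N2 numbered 2453 with RLE factors, 2419 with upper-quartile factors, 2340 with library totals, 2712 without the filter, 2124 with a stricter filter, 2061 with 4 libraries in the fit, 2493 with the length trend removed, 2179 by DESeq2 and 2258 by limma-voom. With 1 library left out they ranged from 656 to 3428, those higher from 269 to 1653 and those lower from 387 to 1775; the cause was not tested. Of the 656 genes called without GR1395 replicate 1, 621 were among the 2415, and of the 928 without N2 replicate 2, 873 were. With the replicate number as a block 1764 genes were called (859 higher, 905 lower), 1742 of them among the 2415. The numbers did not pair the libraries: same-numbered libraries had correlations of deviations of 0.0135 (GR1395 and N2), -0.184 (HW3826 and N2) and 0.00974 (GR1395 and HW3826).

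Of 531 called genes in the lists, windows, runs and the naming rule, 132 kept their call without each of the 6 libraries in turn, 399 lost it at least once, and 176 lost it under another setting. With the length trend removed 2 genes changed sign: ttn-1, the titin gene, to -0.036 (adjusted p = 0.751) and ajm-1, a junction gene not called in the main analysis, to -0.21 (adjusted p = 0.0385). That setting gave 29 lowered division genes in place of 21. Genes under about 1 CPM rest on few counts, and 400 called genes had a mean under 2 CPM.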

Other observations

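The largest fall by the naming rule was of srw-85. It had 2.57 and 1.951 CPM in GR1395 and 75.3 and 71.51 CPM in N2 (log2 fold change -5.01 ± 0.13, edgeR adjusted p = 7.92e-11). The gene haf-6 had 5.403 and 5.435 CPM in GR1395 and 32.69 and 33.48 CPM in N2 (-2.61 ± 0.10, adjusted p = 4.52e-09). HW3826 was also low, with 1.353 and 1.765 CPM of srw-85 and 5.869 and 6.407 CPM of haf-6. Other genes with large differences included several named by sequence only. C18H9.5 had 6.67 and 6.78 CPM in GR1395 and 2.09 and 1.36 CPM in N2 (log2 fold change 1.96 ± 0.21, edgeR adjusted p = 0.000134). Y53F4B.21, on the right arm of chromosome II, had 30.4 and 30.6 CPM in GR1395, 19.5 and 19.5 CPM in HW3826 and 14.8 and 12.5 CPM in N2 (GR1395 over N2 1.16 ± 0.10, adjusted p = 2.96e-05). C18H9.5 and Y53F4B.21 kept their calls without any 1 library.

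On the X chromosome, F19H6.4 had 0.141 and 0.168 CPM in GR1395 and 1.38 and 2.23 CPM in N2 (-3.54 ± 0.40, adjusted p = 0.000211), and the aldehyde dehydrogenase gene alh-13 had 31.4 and 39.2 CPM in GR1395 and 56.2 and 58.7 CPM in N2 (-0.70 ± 0.10, adjusted p = 0.000683). The lectin clec-88 had 1.21 and 3.34 CPM in GR1395 and 12.9 and 19.2 CPM in N2 (-2.85 ± 0.55, adjusted p = 0.0462), a call lost when any 1 N2 or HW3826 library was left out (highest adjusted p 0.227). The stress-linked bZIP gene zip-10 had 6.32 and 3.73 CPM in GR1395 and 1.69 and 1.495 CPM in N2 (1.66 ± 0.28, adjusted p = 0.003), lost without N2 replicate 2 (0.0598).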
